A study of Mus musculus with 6 samples.

Results

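The 10 Frizzled receptor genes of the mouse (Fzd1 to Fzd10) were taken by symbol from a table of 24736 genes, and all 10 were found. Their transcripts were compared between WT ESCs at 0 h and the EpiLCs (epiblast-like cells) made from them in 48 h, with 3 RNA-seq libraries of each state that the labels call biological replicates. Both states came from one wild-type line, the XY line HM1 carrying a TetON transgene. The ESCs were kept on inactivated feeder fibroblasts with 10% serum and LIF at 1000 U/ml. To start differentiation, feeder cells were depleted by letting them stick to plastic, and such a step is not stated for the ESCs taken at 0 h. The EpiLCs were grown in serum-free N2B27 medium with bFGF at 10 ng/ml and LGK974 at 5 µM, a Porcupine inhibitor that stops WNT proteins from being secreted. The comparison asks which WNT receptors were transcribed before and after the exit from naive pluripotency, in cells that are about to be tested for their response to WNT.

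Frizzled proteins are multi-pass membrane receptors of class F. Their extracellular cysteine-rich domain binds the lipid carried by WNT ligands, and inside the cell they recruit Dishevelled. With the coreceptors LRP5 and LRP6 they stabilise β-catenin, and with other partners they act in planar cell polarity and in migration. In the early embryo WNT signalling through these receptors is known for its part in forming the primitive streak and the posterior body.

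On the mm10 build (GRCm38), 6 of the 10 genes are annotated in GENCODE with a single exon, namely Fzd1, Fzd2, Fzd7, Fzd8, Fzd9 and Fzd10. Fzd4 and Fzd5 have 2 exons each, and Fzd3 and Fzd6 have 7. The most abundant member in both states, Fzd7, lies on chromosome 1 at chr1:59482147-59486955 on the plus strand. Fzd5, the abundant member that fell, lies on the same chromosome at chr1:64730558-64737750 on the minus strand. The bases just upstream of the start of these genes are shown because the pair moved in opposite directions. They were read from RefSeq on GRCm38.p6 (chr1:59481897-59482146, plus strand, for Fzd7 and chr1:64737752-64738000, minus strand, for Fzd5), and each runs 5′ to 3′ towards the start. For Fzd5 249 bases are printed, without the 1 base next to the start, which lies inside Fzd5 itself as annotated in GENCODE. Matches were counted over 250 bases for both genes. Capitals mark matches to the CCAAT box (CCAAT, or ATTGG on the other strand) and to the GC box (GGGCGG, or CCGCCC on the other strand). In Fzd7 the last pair of GC boxes overlap.
Fzd7: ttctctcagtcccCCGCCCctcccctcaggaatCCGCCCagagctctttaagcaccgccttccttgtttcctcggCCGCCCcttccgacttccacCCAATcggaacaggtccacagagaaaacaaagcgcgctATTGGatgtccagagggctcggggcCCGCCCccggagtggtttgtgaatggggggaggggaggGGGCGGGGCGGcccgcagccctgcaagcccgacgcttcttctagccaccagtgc
Fzd5: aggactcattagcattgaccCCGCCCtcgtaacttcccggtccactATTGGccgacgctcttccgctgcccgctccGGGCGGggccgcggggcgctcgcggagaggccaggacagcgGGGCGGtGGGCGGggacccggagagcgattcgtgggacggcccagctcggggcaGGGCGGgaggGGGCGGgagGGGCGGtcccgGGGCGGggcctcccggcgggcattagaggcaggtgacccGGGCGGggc

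RefSeq windows were matched for 6 members, and Fzd2, Fzd3, Fzd6 and Fzd8 were not matched. In the 250 bases upstream of the start, Fzd7 held 2 CCAAT boxes and 6 GC boxes, whereas Fzd5 held 1 CCAAT box and 9 GC boxes. Fzd4 held 1 CCAAT box and 7 GC boxes, Fzd9 and Fzd10 held 1 GC box each, and Fzd1 held neither. All 250 bases of the Fzd10 window, 183 of the Fzd9 window and 11 of the Fzd4 window lie inside the same gene as annotated in GENCODE. These bases are upstream of the RefSeq start only. Of 32851 mouse promoter windows of the same length, 33.8% held a CCAAT box and 32.7% a GC box. The letters CTTTGAT, a TCF/LEF motif, and AACAATG, a SOX motif, were searched on both strands. They occurred in none of the 6 windows and in 3.21% and 3.29% of all windows, respectively. GC content was 65.2% upstream of Fzd7 and 76.4% upstream of Fzd5, against a median of 52.4% over all windows. These matches are letters in a window and were not measured as binding sites.

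The libraries held between 16967741 and 35096210 expected counts, which are the read counts that RSEM assigns to each gene. Each Frizzled gene had between 24 and 11165 counts in every library, and all 60 of these counts were whole within 0.005, so that no read was divided between a Frizzled gene and another gene. Levels are given as TPM, a transcript abundance scaled for transcript length and library total, which can be compared between genes. CPM are counts scaled for the library total alone. The states matched their labels: 8 of 8 naive ESC markers, Nanog and Klf4 among them, were lower in EpiLCs, and 5 of 5 EpiLC markers, Fgf5 and Otx2 among them, were higher. Some libraries stood apart within their group. The 14 fibroblast markers summed to 459, 1957 and 166 TPM in ESC replicates 1, 2 and 3 and to between 147 and 193 TPM in the EpiLCs, with all 14 highest among the ESCs in replicate 2. In EpiLCs the highest of these markers were Tagln, Acta2 and Thy1 (means of 79.4, 37.8 and 22.0 TPM), and none of them was called. Col1a1, by contrast, measured 90.5, 489 and 28.3 TPM in ESC replicates 1, 2 and 3. In EpiLC replicates 1, 2 and 3 it measured 6.63, 13.9 and 3.08 TPM. Of the 14 markers Lum and Fap were at 0 in some libraries and never above 0.18 TPM, and 5 of the 12 fibroblast markers tested were lower in EpiLCs. The 8 primitive streak and mesoderm markers, such as T and Mixl1, summed to 446, 175 and 138 TPM in ESC replicates 1, 2 and 3 and to 8.31, 8.59 and 47.1 TPM in EpiLC replicates 1, 2 and 3. Of these 8 genes 6 were lower in EpiLCs, and T and Tbx6 were not called. T measured 0.87, 0.69 and 30.7 TPM in EpiLC replicates 1, 2 and 3, and so made up most of the sum in replicate 3. Evx1, Mesp1 and Msgn1 were at 0 in some EpiLC libraries. Primitive endoderm markers summed to between 36.1 and 64.4 TPM in ESCs and between 4.50 and 5.74 TPM in EpiLCs (6 of 7 lower), and of 5 neural markers edgeR called 0, with 3 at an unadjusted p under 0.05 and 2 called by DESeq2. In such bulk libraries, fewer cells of a type and less RNA per cell cannot be told apart.

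The Frizzled set changed in both its make-up and its total. In EpiLCs 5 of the 10 genes rose (Fzd2, Fzd3, Fzd4, Fzd7 and Fzd8), 2 fell (Fzd5 and Fzd10) and 3 did not pass the test (Fzd1, Fzd6 and Fzd9). Calls were made with edgeR's quasi-likelihood test at a Benjamini-Hochberg adjusted p of at most 0.05 over 14468 genes, of which 45.4% were called, 22.6% as higher and 22.8% as lower. The median log2 fold change of the 10 genes was 0.69, against -0.0017 over all genes tested. The log2 fold change exceeded 1 in size for 4 called members, Fzd2, Fzd3, Fzd5 and Fzd10, as it did for 20.2% of all genes tested. The TPM of the 3 EpiLC libraries lay above all 3 ESC libraries for 6 members and below them for 2, so that the groups did not overlap for 8 of 10. Over all genes tested 33.8% lay above and 25.6% below, 59.5% in all. Of the 10 genes, 5 kept their call under each of 13 alternative analyses (Fzd2, Fzd3, Fzd5, Fzd7 and Fzd10). The count of higher members was 3 instead of 5 when ESC replicate 1 or any single EpiLC replicate was left out, since Fzd4 and Fzd8 then lost their call.

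**Figure D1:**
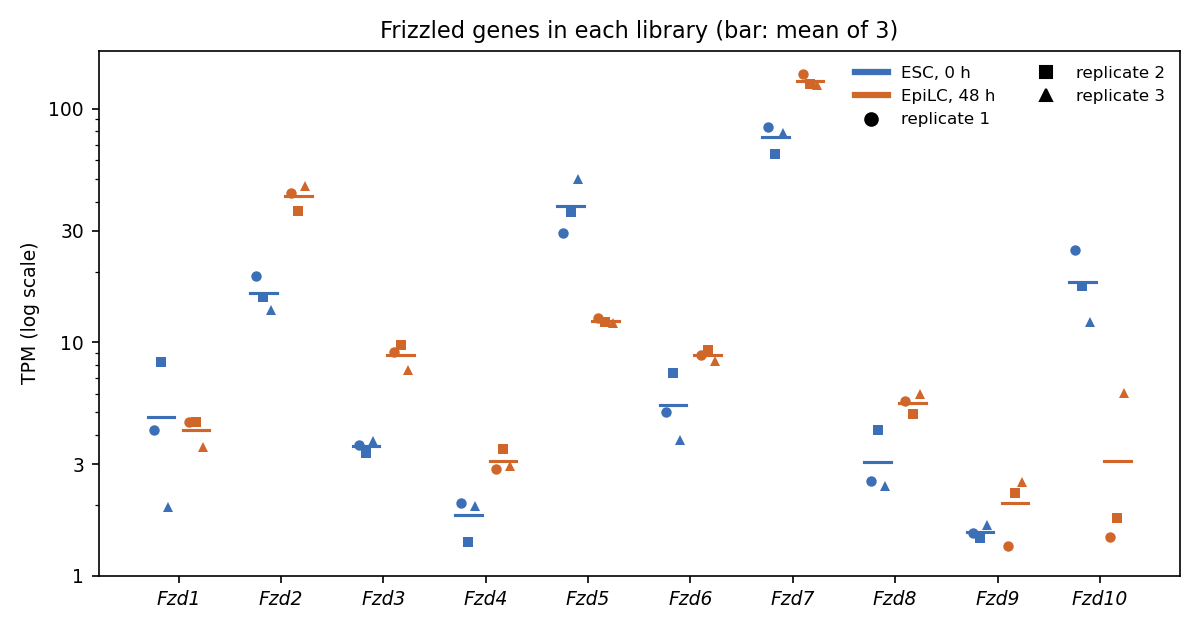
TPM of each Frizzled gene (log scale) in the 3 ESC libraries (blue) and the 3 EpiLC libraries (orange), with marker shapes for the replicate number and a bar for the mean of each group. Fzd7 lies highest in both states, Fzd2 lies below Fzd5 in ESCs and above it in EpiLCs, and Fzd10 falls with a wide spread among the EpiLCs.

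**Figure D2:**
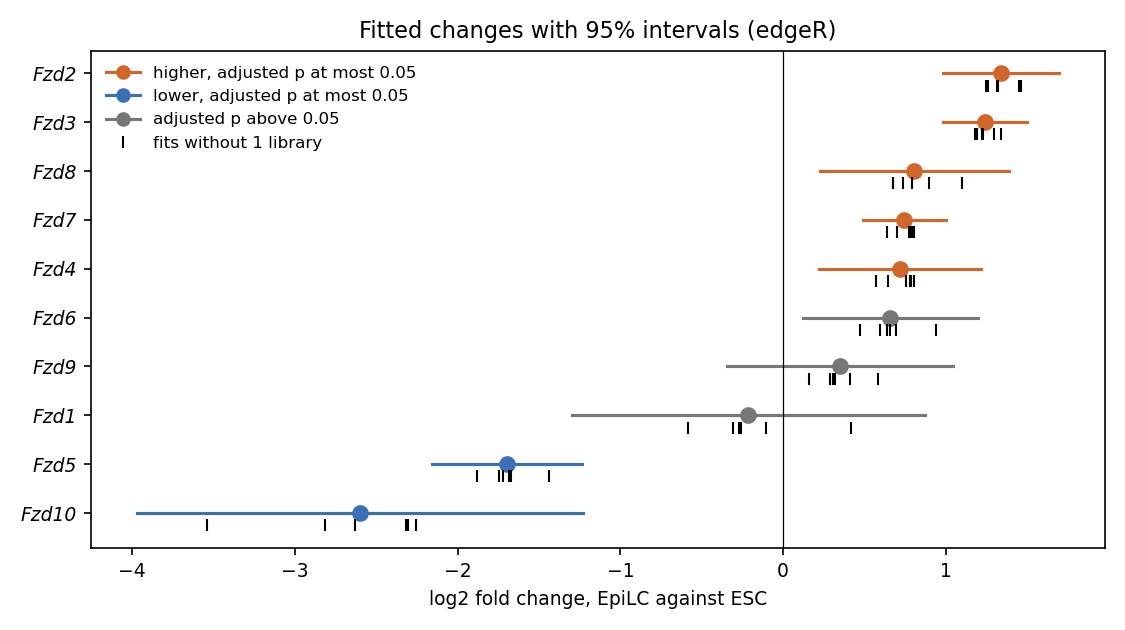
Log2 fold change of each Frizzled gene from ESC to EpiLC in edgeR's fit, as a point with its 95% interval, coloured by its call, with ticks below for the 6 fits that leave out 1 library. Fzd2 and Fzd3 lie farthest above 0 and Fzd10 farthest below, and the ticks of Fzd1 fall on both sides of 0.

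Among the closely related Fzd1, Fzd2 and Fzd7, the more abundant pair rose. Fzd7, the Frizzled best known from pluripotent stem cells, stood at 83.5, 63.9 and 78.8 TPM in the ESC libraries, by replicate number, while the EpiLC libraries held 140.2, 127 and 126 TPM. Every EpiLC library was above every ESC library. The mean was 75.4 ± 10.2 TPM (SD, n = 3) in ESCs and 131 ± 7.91 TPM (SD, n = 3) in EpiLCs, and the log2 fold change was 0.75 (SE 0.11, adjusted p = 0.00201, edgeR). Fzd7 was also abundant among all genes: its level lay between the 80.9th and the 91.7th percentile of the genes tested.

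Fzd2, a receptor known for responses to WNT5A, lies on chromosome 11 (chr11:102604431-102608058, plus strand). It measured 19.2, 15.6 and 13.7 TPM in the ESC libraries and 43.5, 36.6 and 46.8 TPM in the EpiLC libraries. The lowest EpiLC library thus held more Fzd2 transcript than the highest ESC library. With a log2 fold change of 1.34 (SE 0.15, adjusted p = 7.10e-04, edgeR), Fzd2 had the largest fitted rise with all libraries, a fold of 2.53, close to that of Fzd3. The order of the pair turned without ESC replicate 3 (1.24 for Fzd2 and 1.29 for Fzd3) and without EpiLC replicate 3 (1.26 for Fzd2 and 1.34 for Fzd3). Its rise was larger than that of Fzd7 in relative terms, and the ratio of Fzd7 to Fzd2 was 4.73 ± 0.881 in ESCs and 3.13 ± 0.398 in EpiLCs (SD, n = 3).

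Fzd1, which acts redundantly with Fzd2 in closing the palate, was a minor member with no call. It measured 4.19, 8.20 and 1.96 TPM in ESC replicates 1, 2 and 3, and 4.56, 4.56 and 3.55 TPM in the EpiLC replicates. The ESC libraries spread on both sides of the EpiLC libraries. The log2 fold change was -0.21 with a 95% interval from -1.30 to 0.87 (adjusted p = 0.725, edgeR), which leaves room for a change in either direction. Its highest value was in ESC replicate 2, where the fibroblast markers were also highest, and without that library the log2 fold change was 0.42 (adjusted p = 0.305, edgeR). The part of the fibroblast markers in the Fzd1 level was not tested.

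The pair Fzd5 and Fzd8, nearest relatives within the family, moved in opposite directions. Fzd5, known in the mouse for yolk sac vessels and for Paneth cells of the gut, was the second most abundant Frizzled in ESCs. It measured 29.2, 35.9 and 50.2 TPM in ESC replicates 1, 2 and 3 and only 12.7, 12.2 and 12.02 TPM in the EpiLCs. Fzd5 was highest in ESC replicate 3, as was the sum of the 8 naive ESC markers. That sum was 2014, 2104 and 2746 TPM in ESC replicates 1, 2 and 3, and its part in the Fzd5 level was not tested. For Fzd5 all ESC libraries lay above all EpiLC libraries, and the EpiLC libraries lay close together. Its mean of 38.4 ± 10.7 TPM in ESCs stood against 12.3 ± 0.371 TPM in EpiLCs (SD, n = 3), a log2 fold change of -1.70 (SE 0.19, adjusted p = 7.96e-04, edgeR).

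Fzd8, whose cysteine-rich domain was used to study how a WNT ligand is held, was lower than Fzd5 in every library. Its levels were 2.54, 4.22 and 2.42 TPM in ESCs and 5.62, 4.90 and 5.99 TPM in EpiLCs, and the groups did not overlap. The log2 fold change of 0.81 (SE 0.25, adjusted p = 0.0339, edgeR) was called, but the adjusted p lay between 0.0601 and 0.102 when ESC replicate 1, ESC replicate 3 or any EpiLC replicate was left out. Without ESC replicate 2, the highest ESC library for Fzd8 and for the fibroblast markers, the log2 fold change was 1.10 (adjusted p = 0.00313, edgeR). As a result of both changes, the ratio of Fzd5 to Fzd8 was 13.6 ± 6.37 in ESCs and 2.25 ± 0.241 in EpiLCs (SD, n = 3).

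In the group of Fzd4, Fzd9 and Fzd10, one gene carried most of the change. Fzd10, a gene known to be transcribed in the primitive streak and later in the dorsal neural tube, lies on chromosome 5 (chr5:128601106-128604093, plus strand). Its levels were 24.9, 17.4 and 12.2 TPM in ESC replicates 1, 2 and 3 and 1.47, 1.76 and 6.05 TPM in EpiLC replicates 1, 2 and 3. The groups did not overlap, but EpiLC replicate 3 stood well above the other two EpiLC libraries. With a log2 fold change of -2.60 (SE 0.58, adjusted p = 0.0107, edgeR), Fzd10 fell more than any other member, and it also had the largest SE. Without EpiLC replicate 3 the log2 fold change was -3.54 (adjusted p = 0.00218), and without ESC replicate 1 it was -2.32 (adjusted p = 0.0343, edgeR).

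The libraries in which Fzd10 was highest were also those with the most streak and mesoderm transcripts. ESC replicate 1 was the highest ESC library for all 8 of these markers, and EpiLC replicate 3 was the highest EpiLC library for 6 of them. Fzd2 and Fzd10 both had their highest ESC value in replicate 1 and their highest EpiLC value in replicate 3, as did 10.1% of all genes tested. The part of the streak and mesoderm markers in the Fzd10 level was not tested. A noncoding gene next to Fzd10, 5930412G12Rik (Fzd10os in RefSeq), was named after its values were seen. It measured 2.71, 0.95 and 1.12 TPM in ESCs and 0.26, 0.16 and 0.35 TPM in EpiLCs, and it fell with a log2 fold change of -2.69 (SE 0.53, adjusted p = 0.00642, edgeR).

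**Figure D3:**
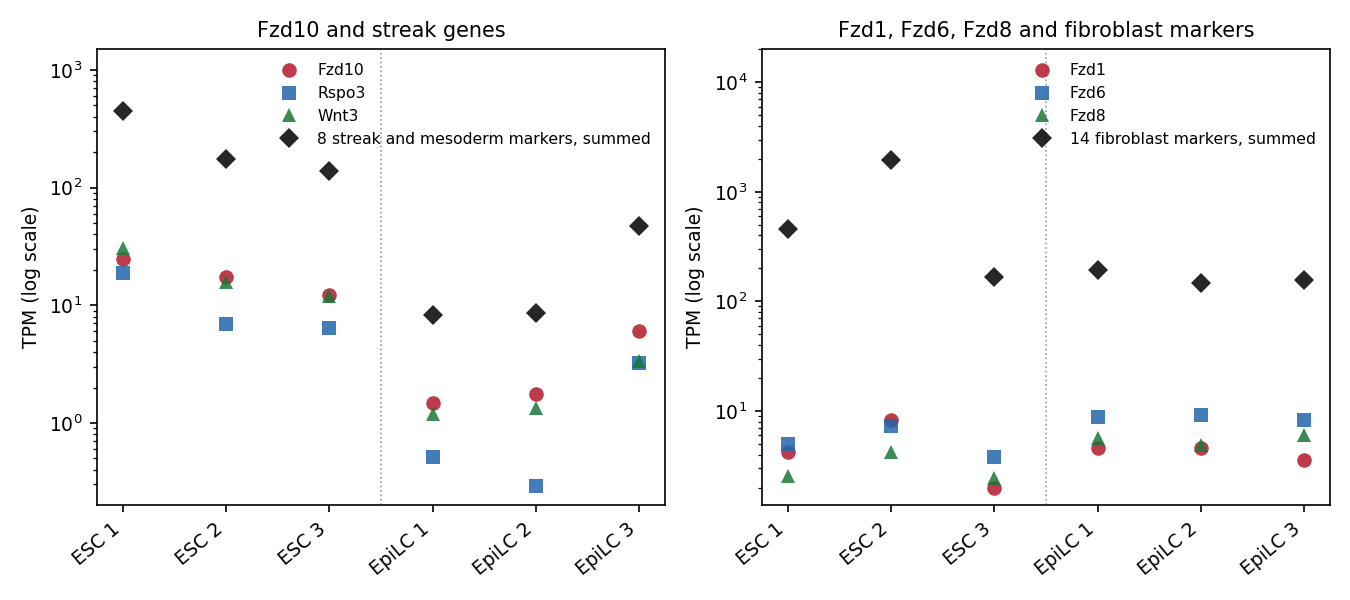
TPM (log scale) in each of the 6 libraries of Fzd10, Rspo3, Wnt3 and the sum of 8 streak and mesoderm markers (left), and of Fzd1, Fzd6, Fzd8 and the sum of 14 fibroblast markers (right); a dotted line separates ESCs from EpiLCs. On the left all 4 series are highest in ESC replicate 1 and, among EpiLCs, in replicate 3. Rspo3 and Wnt3 were picked as the genes most like Fzd10 over these 6 libraries, so their likeness to it follows from that choice. On the right all 4 series are highest among ESCs in replicate 2.

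Fzd4, the receptor for Norrin in retinal vessels, was scarce in both states. It measured 2.04, 1.40 and 1.99 TPM in the ESC libraries and 2.87, 3.50 and 2.95 TPM in the EpiLC libraries, without overlap. The log2 fold change was 0.72 (SE 0.21, adjusted p = 0.0290, edgeR). This call was lost, with an adjusted p between 0.0524 and 0.1002, when ESC replicate 1 or any EpiLC replicate was left out. Fzd9, known from bone formation and deleted in Williams syndrome, had the lowest mean in both states, although Fzd4 was below it in ESC replicate 2 and Fzd10 was below it in EpiLC replicate 2. Its levels of 1.53, 1.45 and 1.64 TPM in ESCs and 1.34, 2.25 and 2.53 TPM in EpiLCs overlapped. The log2 fold change was 0.35 with a 95% interval from -0.35 to 1.04 (adjusted p = 0.360, edgeR), so that neither a small fall nor a 2-fold rise lay outside the interval.

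Fzd3 and Fzd6, the pair best known for planar cell polarity, axon guidance and hair orientation, both had higher TPM in every EpiLC library than in any ESC library, and of the pair Fzd3 passed the test. Fzd3, on chromosome 14 (chr14:65192441-65262463, minus strand), measured 3.64, 3.35 and 3.78 TPM in ESCs and 9.07, 9.77 and 7.58 TPM in EpiLCs. The ESC libraries lay close together and far below the EpiLC libraries. Its log2 fold change was 1.24 (SE 0.11), with the smallest adjusted p of the family (3.13e-04, edgeR).

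Fzd6 measured 5.01, 7.36 and 3.82 TPM in ESC replicates 1, 2 and 3 and 8.81, 9.21 and 8.29 TPM in the EpiLC libraries. The groups did not overlap, although ESC replicate 2 came close to the EpiLCs. Its log2 fold change of 0.66 (SE 0.23) missed the threshold by a narrow margin (adjusted p = 0.0506, edgeR), and 7 of 13 alternatives called it, DESeq2 among them (adjusted p = 0.0192). Without ESC replicate 2 the log2 fold change was 0.94 (adjusted p = 0.00287, edgeR). Fzd1, Fzd6 and Fzd8 were all highest among the ESC libraries in replicate 2 and lowest in replicate 3, an order shared by 13 of the 14 fibroblast markers and by 26.0% of all genes tested. The part of fibroblast transcripts in Fzd6 and Fzd8 was not tested.

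The summed level of the family was 176, 159 and 170.5 TPM in the ESC libraries and 230.1, 212 and 222 TPM in the EpiLC libraries. The sums did not overlap, and the ratio of the means was 1.31. Without the scaling for length, in CPM, it was 1.22. Within this modest rise, the share of each gene was computed as its percent of the family TPM. Fzd7 held 44.7 ± 3.88% of the family in ESCs and 59.2 ± 2.15% in EpiLCs (SD, n = 3), and Fzd2 went from 9.60 ± 1.45% to 19.1 ± 1.92%. Together, the pair held 54.3 ± 4.19% and then 78.3 ± 1.32% of the family.

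The ground gained by Fzd7 and Fzd2 was lost by Fzd5 and Fzd10. Fzd5 held 22.9 ± 6.40% of the family in ESCs and 5.57 ± 0.172% in EpiLCs, and Fzd10 held 10.7 ± 3.51% and then 1.40 ± 1.15% (SD, n = 3). The EpiLC mean of Fzd10 was carried by replicate 3, with shares of 0.639%, 0.831% and 2.73% in EpiLC replicates 1, 2 and 3. Fzd3 held 2.13 ± 0.0760% in ESCs and 3.99 ± 0.600% in EpiLCs. In CPM, where long transcripts weigh more, the share of Fzd3 differed between EpiLCs and ESCs by 5.08 percentage points, against 1.86 in TPM, and that of Fzd2 by 7.24, against 9.49. The same difference was -5.51 in CPM and -9.34 in TPM for Fzd10, and -23.2 in CPM and -17.3 in TPM for Fzd5. The shares of 4 genes (Fzd2, Fzd3, Fzd4 and Fzd7) were higher in all EpiLC libraries than in all ESC libraries, those of Fzd5 and Fzd10 were lower, and those of Fzd1, Fzd6, Fzd8 and Fzd9 overlapped. Shares add up to 100% in each library, so that they are not independent of each other. The group of Fzd1, Fzd2 and Fzd7 held 57.2 ± 3.17% in ESCs and 80.2 ± 1.34% in EpiLCs. By contrast, Fzd5 with Fzd8 went from 24.7 ± 6.40% to 8.05 ± 0.0741%, and Fzd4, Fzd9 and Fzd10 from 12.7 ± 3.46% to 3.74 ± 1.37%. The effective number of Frizzled genes, the inverse of the sum of squared shares, was 3.61 ± 0.493 in ESCs and 2.53 ± 0.127 in EpiLCs (SD, n = 3).

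**Figure D4:**
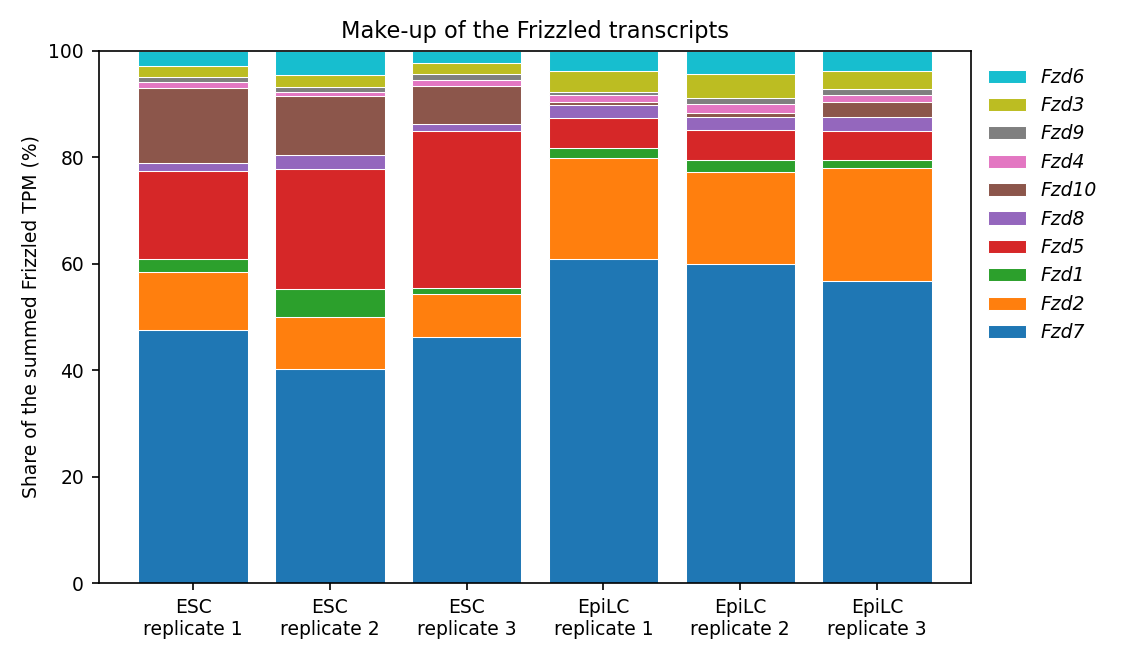
Stacked bars of the percent of the summed Frizzled TPM held by each gene in each of the 6 libraries, ordered by related groups from Fzd7 at the bottom to Fzd6 at the top. The Fzd7 and Fzd2 segments together reach between 50.1% and 58.5% in ESCs and between 77.3% and 79.8% in EpiLCs, while Fzd5 (red) and Fzd10 (brown) shrink.

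The order of the genes changed with the state. In ESCs Fzd7 was first and Fzd5 second, and each lay above the next gene in all 3 libraries. Fzd10 and Fzd2 followed with overlapping ranges, then Fzd6, Fzd1, Fzd3 and Fzd8, whose neighbours in the order also overlapped, and last Fzd4 and Fzd9, which overlapped as well. In EpiLCs Fzd7 was followed by Fzd2 and then Fzd5, and these 3 genes did not overlap in range. Fzd3 and Fzd6 came next and overlapped each other, Fzd8 and Fzd1 followed by mean, and Fzd4, Fzd10 and Fzd9 had the lowest means. Fzd4 and Fzd9 did not overlap each other. The range of Fzd10, from 1.47 to 6.05 TPM, overlapped both and also covered those of Fzd8 and Fzd1, and in EpiLC replicate 3 Fzd10 was above both. Second place passed from Fzd5 to Fzd2, and the ratio of Fzd5 to Fzd2 was 1.52, 2.30 and 3.65 in the ESC libraries, by replicate number. The EpiLC libraries gave 0.293, 0.333 and 0.257. Fzd7 was 2.07 ± 0.690 times as abundant as Fzd5 in ESCs and 10.6 ± 0.326 times in EpiLCs (SD, n = 3).

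For the most abundant Frizzled and for the called member with the largest change, the genes with the most similar pattern were sought among 10200 genes with a mean of at least 5 TPM. Likeness was the root mean square difference over the 6 libraries of log2(TPM + 1), each gene being centred on its own mean. The closest to Fzd7 were Creb1 (0.0446 on the log2 scale), which encodes a cAMP-responsive transcription factor, Zfp664 (0.0545) and Pde7a (0.0682), a phosphodiesterase gene. Creb1 measured 20.0, 15.0 and 19.6 TPM in ESCs and 33.3, 32.8 and 32.1 TPM in EpiLCs. The closest to Fzd10 were Rspo3 (0.271), which encodes an R-spondin, Wnt3 (0.289), the WNT ligand needed to form the primitive streak, and Chst15 (0.348), a sulfotransferase gene. Wnt3 measured 30.4, 15.7 and 12.01 TPM in ESC replicates 1, 2 and 3 and 1.19, 1.34 and 3.37 TPM in EpiLC replicates 1, 2 and 3. The distances of Fzd7 and Fzd10 cannot be set against each other, since they are not scaled for the size of a change, which was larger for Fzd10. In addition, 6 libraries in 2 states give little to tell patterns apart.

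Around the Frizzled genes, a list of 50 partners of the receptors changed in both directions. Of the 47 partners tested, 12 rose, 14 fell and 21 did not pass the test, with a median log2 fold change of -0.18. The number that fell was 6, 8 and 9 when EpiLC replicate 1, 2 and 3 was left out, respectively. The call rate was 45.4% over all genes tested, as given above. Among the coreceptors, Lrp5 rose with a log2 fold change of 0.48 (SE 0.10, adjusted p = 0.00835, edgeR), from between 29.0 and 36.8 TPM in ESCs to between 46.9 and 51.1 TPM in EpiLCs. Lrp6 was not called, with 26.6, 21.7 and 27.4 TPM in ESCs and 25.4, 27.0 and 21.6 TPM in EpiLCs. Of the other WNT receptors, 1 of 4 tested passed. This was Ror1, a receptor tyrosine kinase that binds WNT5A, which measured 4.09, 3.61 and 1.99 TPM in ESCs and 21.3, 15.6 and 22.1 TPM in EpiLCs (log2 fold change 2.59, SE 0.28, adjusted p = 6.57e-04, edgeR).

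Among the genes that set how much Frizzled stays at the cell surface, 3 R-spondins passed the test, 1 higher and 2 lower, and Rspo4, at most 0.33 TPM in any library, was not tested. ZNRF3 and RNF43 are ubiquitin ligases that remove Frizzled from the membrane, and R-spondins hold them back through LGR receptors. Znrf3 (log2 fold change -0.26, adjusted p = 0.0487, edgeR) and Lgr4 (log2 fold change -0.31, adjusted p = 0.0278, edgeR) fell slightly, whereas Rnf43, Lgr5 and Lgr6 were not called. The call of Znrf3 was lost when any of the 6 libraries was left out (adjusted p from 0.0556 to 0.185), and that of Lgr4 when any library but ESC replicate 1 was left out (adjusted p from 0.0540 to 0.0964). Rspo1 rose from 1.61, 1.54 and 2.35 TPM in ESCs to 14.02, 13.1 and 13.1 TPM in EpiLCs, a log2 fold change of 2.79 (SE 0.21, adjusted p = 1.93e-04, edgeR). Rspo3 fell from 18.8, 6.91 and 6.47 TPM in ESC replicates 1, 2 and 3 to 0.51, 0.29 and 3.24 TPM in EpiLC replicates 1, 2 and 3. Its log2 fold change of -3.04 (adjusted p = 0.0310, edgeR) was -4.76 without EpiLC replicate 3, and the call was lost without ESC replicate 1 (adjusted p = 0.0961), EpiLC replicate 1 (adjusted p = 0.0991) or EpiLC replicate 2 (adjusted p = 0.0732). Rspo2 measured 1.32, 10.2 and 1.23 TPM in ESC replicates 1, 2 and 3, and the size of its fall depended on replicate 2, the library in which the fibroblast markers summed to 1957 TPM. The part of these markers in its level was not tested. Its log2 fold change was -3.42 with all libraries (adjusted p = 0.0239) and -1.69 without ESC replicate 2, where the call was kept (adjusted p = 0.00996, edgeR). The call of Rspo2 was lost when EpiLC replicate 1, 2 or 3 was left out, with adjusted p between 0.0629 and 0.0863. It was also lost with limma on log2(TPM + 1), where the log2 fold change was -1.46 (adjusted p = 0.0825, limma).

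Secreted antagonists changed in both directions. SFRP proteins bind WNT ligands, and DKK1 binds the LRP coreceptors. Sfrp2 rose (16.9, 11.3 and 16.1 TPM in ESCs, 36.3, 37.3 and 44.3 TPM in EpiLCs, log2 fold change 1.36, adjusted p = 0.00118, edgeR), and Sfrp5 fell (5.79, 4.46 and 5.60 TPM in ESCs, 0.98, 1.05 and 1.23 TPM in EpiLCs, log2 fold change -2.33, adjusted p = 4.04e-04, edgeR). The other 4 genes of that list, Sfrp1, Sfrp4, Frzb and Wif1, were not called. Dkk1, a direct WNT target in many tissues, measured 5.06, 3.65 and 2.32 TPM in ESC replicates 1, 2 and 3 and 0.11, 0.09 and 0.60 TPM in EpiLC replicates 1, 2 and 3. Like Fzd10, it was highest in ESC replicate 1 and in EpiLC replicate 3. The log2 fold change of Dkk1 was -3.85 (SE 0.70, adjusted p = 0.00479, edgeR), and without EpiLC replicate 3 it was -5.21 (adjusted p = 0.00227, edgeR). Dkk3 also fell, by 1.92 on the log2 scale, and Dkk2, Kremen1 and Kremen2 were not called.

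The 5 genes listed as Frizzled-specific partners all passed the test with all libraries, in both directions. Ndp, which encodes the FZD4 ligand Norrin, had 0 counts in every ESC library and 21, 14 and 14 counts in the EpiLC libraries, which is at least 3.40-fold higher when each ESC library is set at a floor of 3 counts (adjusted p = 0.00347, edgeR). Tspan12, which encodes a tetraspanin that helps FZD4 respond to Norrin, rose by a log2 fold change of 1.08 (SE 0.22, adjusted p = 0.00682, edgeR). Thus Fzd4 and both of these partners were higher in EpiLCs, where Ndp measured 0.67, 0.46 and 0.51 TPM and Tspan12 6.79, 6.33 and 6.12 TPM. Reck and Adgra2, which encode the WNT7 cofactors RECK and GPR124, fell by 0.60 and 1.56 on the log2 scale, and Gpc4, a glypican gene, fell by 0.85. Adgra2 and Gpc4, like the fibroblast markers, were highest in ESC replicate 2, with 8.55 and 107.7 TPM, and the part of those markers was not tested. Without that library their log2 fold changes were -1.01 (adjusted p = 0.0558) and -0.46 (adjusted p = 0.00818, edgeR), and both genes lost their call when any 1 EpiLC replicate was left out. Adgra2 also lost it without ESC replicate 1 (adjusted p = 0.0632, edgeR).

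Downstream of the receptors, Dvl1 rose (log2 fold change 0.74, SE 0.16, adjusted p = 0.00853, edgeR), Dvl3 rose by a smaller amount (log2 fold change 0.27) and Dvl2 fell (log2 fold change -0.33), although Dvl2 remained the most abundant of the 3 at 61.1, 63.5 and 59.2 TPM in EpiLCs. In the planar cell polarity core, where FZD3 and FZD6 act, 3 of 9 genes rose and 3 fell. Vangl1 fell from between 21.7 and 22.1 TPM to between 5.18 and 7.24 TPM (log2 fold change -1.81, SE 0.13, adjusted p = 1.61e-04, edgeR), while its relative Vangl2 rose (log2 fold change 0.43, adjusted p = 0.0200, edgeR). Prickle1 rose by a log2 fold change of 1.56 while Prickle2 and Prickle3 fell by 0.64 and 1.08, and Celsr2 rose by 1.06. Smo, the class F receptor of the Hedgehog pathway, rose from 33.7, 25.2 and 22.1 TPM to 59.8, 57.8 and 57.5 TPM (log2 fold change 1.06, SE 0.14, adjusted p = 0.00154, edgeR). With 1 library left out, Dvl3 lost its call without ESC replicate 3 (adjusted p = 0.0531), EpiLC replicate 1 (adjusted p = 0.112) or EpiLC replicate 2 (adjusted p = 0.102), and Vangl2 without EpiLC replicate 1 (adjusted p = 0.0757) or EpiLC replicate 3 (adjusted p = 0.0559). Dvl2 and Prickle2 lost theirs without EpiLC replicate 1 (adjusted p = 0.0528 and 0.0530, edgeR). Of the 4 genes for receptor maturation and trafficking (Mesd, Shisa2, Shisa3 and Tmem59) edgeR called 0, with 2 at an unadjusted p under 0.05, and DESeq2 called these 2, Mesd and Tmem59.

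**Figure D5:**
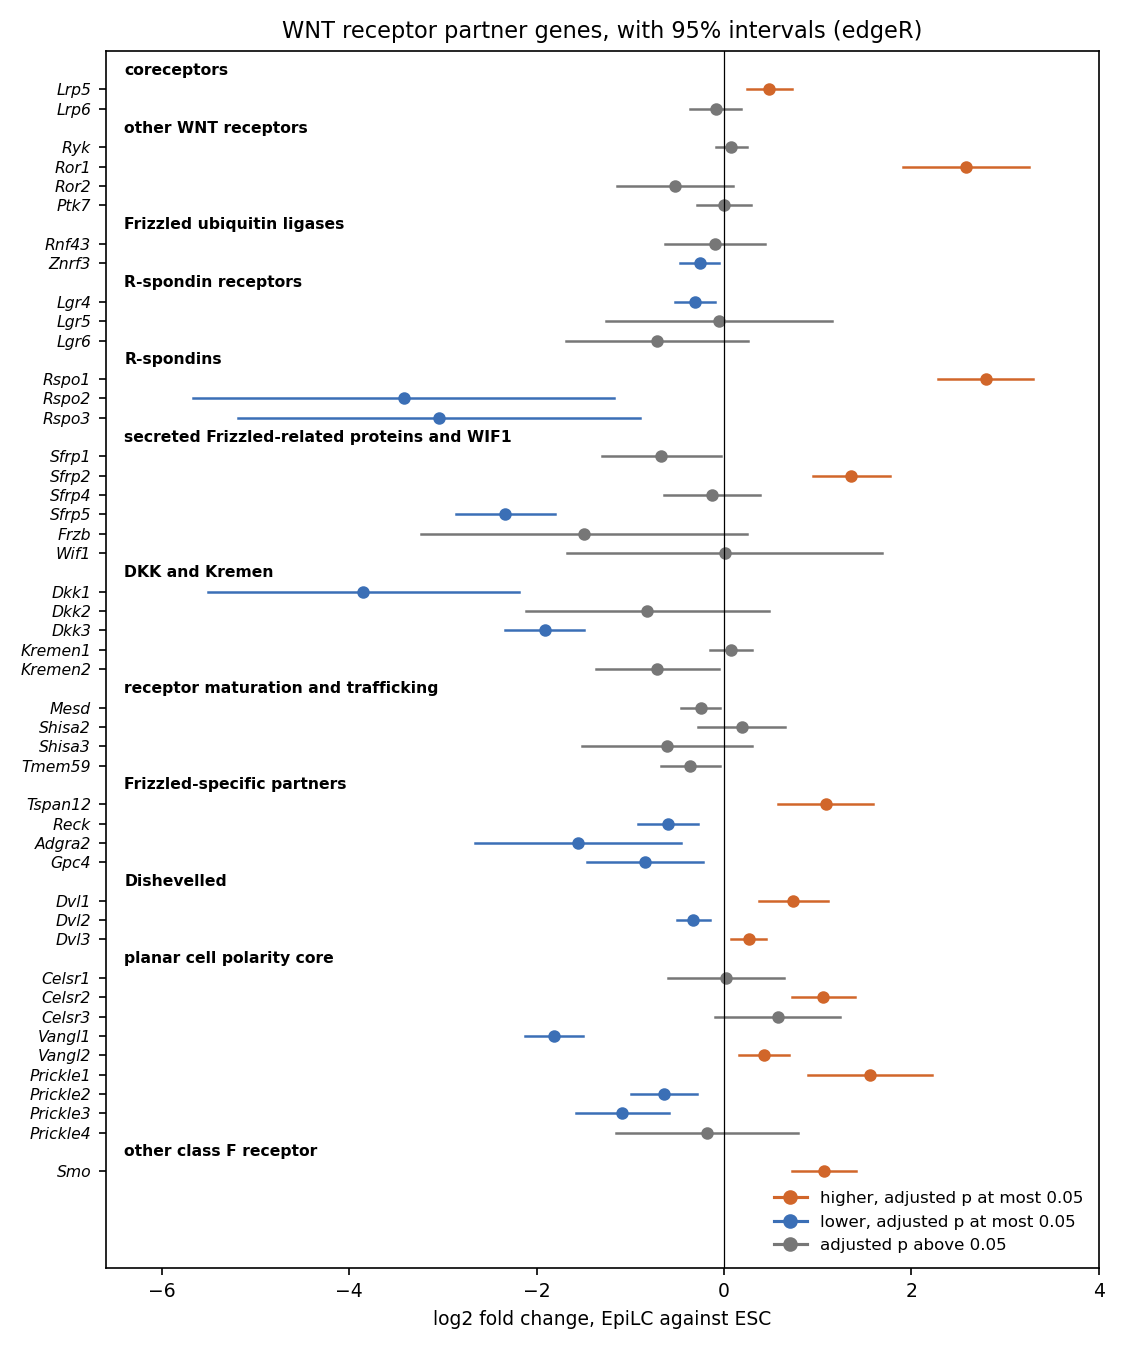
Log2 fold change from ESC to EpiLC of 46 partner genes in edgeR's fit, with 95% intervals, grouped by role and coloured by call; Ndp is not drawn because it had 0 counts in all ESC libraries. R-spondin genes lie on both sides of 0, from Rspo2 at -3.42 to Rspo1 at 2.79, and the intervals of Rspo2, Rspo3 and Dkk1 are wide.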

How the data were processed

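RNA was measured in 6 libraries of polyA RNA, 3 of WT ESCs and 3 of EpiLCs, sequenced as strand-specific single-end reads of 76 nt. Per the labels, and in the results text of the study, the EpiLCs were collected after 48 h, whereas its culture methods give 72 h. The authors trimmed reads with cutadapt 1.16, aligned them with STAR 2.5.2a and quantified mm10 RefSeq genes with RSEM 1.3.0. Deposited by the authors were the expected counts of RSEM, without normalization, and TPM, scaled for transcript length and summing to 1000000 per library. DESeq2 1.16.1 is also named in the submitters' processing notes.

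Expected counts were rounded to whole numbers, filtered with filterByExpr (14468 of 24736 genes kept), and scaled by TMM (factors 0.979 to 1.02). In edgeR 4.0.16 under R 4.3.3 the quasi-likelihood test was applied two-sided, without covariates, with Benjamini-Hochberg adjustment over all genes tested and a threshold of 0.05. The scripts were tested on simulated data. Shares, sums and ratios used TPM and had no test, since 3 against 3 libraries cannot give an exact permutation p below 0.1. Intervals cover 95%. A count of 3 was the floor for a gene at 0, and it covers counting error only. At the depth of the libraries, 3 counts correspond to between 0.0842 and 0.180 CPM. The labels call the replicates biological, and the study's methods state that its statistical analyses drew on independent experiments. The p-values set the difference between the groups against the spread between libraries of a group, which was estimated with information from all genes.

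Alternatives were upper-quartile normalization, DESeq2 1.42.0, no filter, at least 10 counts in every library, a replicate block, leaving out each library, limma 3.58.1 on log2(TPM + 1) and log2(TPM + 0.1), and CPM (per-library counts, not scaled for length) in place of TPM. Named genes were the 10 Frizzled genes, the 50 listed partners, the 3 genes most like Fzd7 and Fzd10, and marker genes. The members and lists were chosen with earlier results of these data known. The groups of related Frizzled genes, the gene next to Fzd10 and the orders of libraries were chosen after their values were seen. Promoter sequences and gene positions came from RefSeq on GRCm38.p6, and exon numbers from GENCODE vM21.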

Additional observations from a re-analysis of the deposited data

How the results depend on the processing

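Across the 13 alternatives, 110 of the 130 fold changes of Frizzled genes kept their direction and their side of the threshold, 11 lost and 7 gained a call, and 2 changed sign. The sign changes were both of Fzd1, which was never called: 0.037 with limma on log2(TPM + 0.1), and 0.42 without ESC replicate 2 within a range of -0.58 to 0.42 over the fits with 1 library left out. The median fold change of all genes lay between -0.018 and 0.057 on the log2 scale in every setting. With 1 library left out, 3 to 6 Frizzled genes were higher (main value 5) and 2 lower, the median log2 fold change was 0.57 to 0.72, the ratio of summed TPM 1.28 to 1.34 and the gain in the share of Fzd7 12.4 to 16.0 percentage points. In CPM the ratio of sums was 1.22. The difference in share of Fzd9, 0.0133 percentage points in all libraries, was -0.00906, -0.0537 and -0.0927 without ESC replicate 1, EpiLC replicate 2 and EpiLC replicate 3, and that of Fzd1 ranged from -1.86 without ESC replicate 3 to 0.145 without ESC replicate 2. Of the partners, 10 to 12 rose and 6 to 15 fell with 1 library left out (main values 12 and 14; the lowest numbers of falls, 6, 8 and 9, came without EpiLC replicates 1, 2 and 3), and 9 fell with limma on log2(TPM + 1). The causes were not tested. The replicate numbers shared by both groups were not taken to pair the libraries: same-numbered libraries correlated in their deviations at r = 0.00668, 0.186 and 0.170, and ESC replicates 2 and 3 correlated best with their own number, but ESC replicate 1 with EpiLC replicate 3. With the replicate block, 4 Frizzled genes were higher and 2 lower, with a median log2 fold change of 0.71, as Fzd4 (adjusted p = 0.0621) and Fzd8 (adjusted p = 0.0530) lost their call and Fzd6 (adjusted p = 0.0321) gained one; 12 partners rose and 12 fell, without Znrf3 (adjusted p = 0.0602) and Gpc4 (adjusted p = 0.0565). With 3 libraries a group, precision was lowest for Fzd1 and Fzd10, with an SE of 0.46 and 0.58.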
